A study of Mus musculus with 25 samples.

Results

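The nasal side of the E14.5 mouse palate was compared between its anterior and posterior domains, using 4 anterior nasal and 3 posterior nasal RNA-Seq libraries, 7 of the 25 in the series. The 7 libraries were taken by their labels. A gene was tested when at least 3 of the 7 held 5 RPKM or more (RPKM, reads scaled to gene length and to library size), which left 10629 of 37406 genes. Every library came from wild type CD1 embryos at E14.5, with no treatment and no transgene named, and the tissue was cut from sections by laser capture microdissection, so the captured nasal compartment holds whatever mesenchyme, surface epithelium, vessels and nerves lie within it. The labels do not say how many embryos went into a library. The sample names of the alignments carry the word Tgfbr2_WT for anterior replicate 4 and posterior replicate 1, Zymo for anterior replicate 1 and SDS for anterior replicate 2, which the labels do not explain.

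The palatal shelves are made mostly of neural crest mesenchyme under an epithelium, and they differ along the anterior-posterior axis in the transcription factors that they carry. Shox2, Msx1 and Alx1 are known from the anterior mesenchyme, and Barx1, Meox2 and Tbx22 from the posterior. The hard palate forms by membranous ossification, in which mesenchyme cells become osteoblasts under Runx2 and then Sp7, and the nasal side of the shelf faces the nasal cavity.

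The libraries held an implied 2.16 to 4.07 M reads in the anterior group and 2.51 to 6.07 M in the posterior group, which gives a counting error of 12.8% to 21.5% at 5 RPKM on a gene of 2000 bases. Across genes, the log2 values correlated at r = 0.779 to 0.918 within the anterior group, 0.873 to 0.945 within the posterior group and 0.677 to 0.887 between the groups. Anterior replicates 1 and 4 stood farthest from their own group, with mean correlations of 0.821 and 0.820. The 7 libraries came from 5 sequencing runs by the alignment names, and 1 run held both groups, with anterior replicate 4 and posterior replicate 1. The 8 palatal mesenchyme markers summed to 669 to 851 RPKM in the anterior and 638 to 667 RPKM in the posterior. None of them was called (limma), and 2 had an unadjusted p under 0.05, both lower in the posterior. Over all 10629 tested genes, 1985 had such a p in either direction.

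A total of 235 genes (2.21% of those tested) differed with an adjusted p under 0.05 (limma on log2 of RPKM + 0.1, Benjamini-Hochberg over all tested genes), 117 with posterior libraries above anterior ones (1.10%) and 118 with the reverse (1.11%). Transcription factors, bone and cartilage genes, Wnt ligands and axon guidance genes were among them. Of the 235, 226 differed by more than 2-fold and 92 by more than 4-fold. In all 235 the 4 anterior values and the 3 posterior values did not overlap, which was so for 2163 of the tested genes (20.3%). Looser thresholds (more than 2-fold, with an unadjusted limma P below 0.05) called 643 genes (6.05%), of which 368 (3.46%) had the higher values in posterior libraries and 275 (2.59%) in anterior ones. Among the 235, 62 passed the minimum only through anterior libraries and 40 only through posterior libraries, and such genes had to be low on the other side. Genes described below that passed it through posterior libraries alone include Sim2, Dlx1, Dlx3, Panx3, Smpd3, Sox6, Col9a1, Fzd8, Fgfr3, Car3, Slc13a5 and Snord37. Those that passed it through anterior libraries alone include Wnt2, Ntng1, Dcc, Cpa3, Cma1, Rgs5, Kcnj8, Cxcl13, Hpse2, Msx1as, Ambn, Cxcl14, Synpo2, Pou3f3 and Ncam2. A further 83 were among the 8245 genes that held 5 RPKM or more in all 7 libraries.

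The median difference over all tested genes was 0.12 on the log2 scale, so the balance of directions depends on the scaling. After the medians of the libraries were set equal, 274 genes were called and 35.0% of them were higher in the posterior, against 49.8% as deposited. After quantile normalization 296 were called, with 37.2% higher in the posterior. Without the run that held both groups 65 genes were called, 15 higher in the posterior and 50 in the anterior, and 64 of these 65 (98.5%) had the same direction between the 2 libraries of that run, against 62.8% of all genes tested. Without posterior replicate 1, 2 or 3 the count was 53, 95 and 68, where the genes that reached the minimum in 3 posterior libraries alone could no longer be tested. With the run as a term in a fit of all 25 libraries, 33 genes were called, and no member was called in the osteoblast, cartilage, BMP and GDF ligand, FGF, hedgehog, retinoic acid or cell cycle lists described below (limma).

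**Figure D1:**
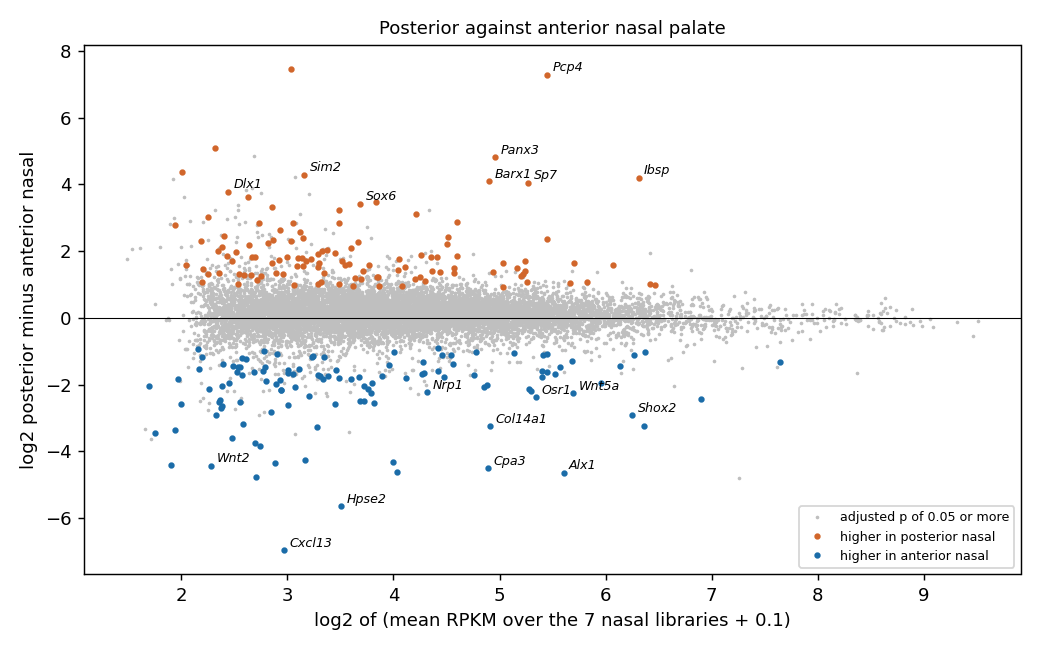
Each point is 1 of the 10629 tested genes, with the log2 of its mean RPKM + 0.1 over the 7 nasal libraries on the x axis and the log2 difference, posterior minus anterior nasal, on the y axis. Orange marks the 117 genes called higher in the posterior and blue the 118 called higher in the anterior, with the rest in grey.

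Of 11 transcription factors listed for the anterior palate, 9 could be tested, and 5 were higher in the anterior nasal libraries and none in the posterior. The list was drawn up with earlier results of these data known, as were all lists here, so its direction is not independent evidence. Shox2, a homeobox factor of the anterior palate, stood at 151, 98.7, 120 and 115 RPKM in the 4 anterior libraries and at 11.97, 19.8 and 16.2 RPKM in the 3 posterior ones. All anterior values lay above all posterior values, by -2.93 ± 0.24 on the log2 scale (SE, adjusted p = 0.00082, limma). Alx1, a homeobox factor needed for the midface, was at 69.95, 68.0, 91.2 and 99.99 RPKM in the anterior and at 1.52, 5.41 and 3.77 RPKM in the posterior. It had the widest gap of the list, -4.64 ± 0.39 (adjusted p = 0.00096, limma). Eya1, a transcriptional co-activator, was at 64.9, 59.1, 50.9 and 65.3 RPKM in the anterior and at 10.9, 23.1 and 20.4 RPKM in the posterior, a difference of -1.78. Pax3, a paired box factor of the neural crest, averaged 38.7 RPKM in the anterior (SD 11.5, n = 4) and 11.4 RPKM in the posterior (SD 1.77, n = 3), a difference of -1.70 (values after ± are SEs for log2 differences and SDs for RPKM, with these n throughout). Tbx15, a T-box factor, averaged 14.1 ± 4.9 and 4.07 ± 1.22 RPKM, a difference of -1.76. The list's median difference was -1.76, against 0.12 over all tested genes.

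The other members did not pass. Msx1, a homeobox factor, was listed at 0 in anterior replicate 1 and at 10.01, 5.74 and 5.94 RPKM in the other anterior libraries, against 0.644, 0 and 0 RPKM in the posterior. The groups overlapped through that 1 library (adjusted p = 0.25, limma). The antisense transcript Msx1as, whose span (mm9 chromosome 5, 38211803 to 38213990) lies within that of Msx1, was at 41.1, 23.7, 24.99 and 21.2 RPKM in the anterior and at 1.06, 1.23 and 0.729 RPKM in the posterior (-4.63 ± 0.28, adjusted p = 0.00017, limma). The libraries were not made to keep strand, so reads of Msx1 and of Msx1as cannot be told apart. Alx4 (0.36, adjusted p = 0.59, limma) and Gsc (1.36, adjusted p = 0.099, limma) had posterior means above their anterior means, with overlapping values for Alx4.

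Of 10 transcription factors listed for the posterior palate, 8 could be tested, and 6 were higher in the posterior nasal libraries and none in the anterior. Barx1, a homeobox factor, was at 1.02, 4.71, 5.86 and 5.42 RPKM in the anterior and at 84.4, 58.1 and 48.9 RPKM in the posterior (4.09 ± 0.56, adjusted p = 0.0075, limma). Sim2, a bHLH-PAS factor, was at 0.980, 1.38, 0.327 and 1.11 RPKM in the anterior and at 12.4, 25.5 and 20.1 RPKM in the posterior (4.28 ± 0.44, adjusted p = 0.0021, limma). For both genes every posterior library lay above every anterior one. Dlx1, a homeobox factor of the distal-less family, was at 0.714, 1.13, 1.14 and 0.253 RPKM in the anterior and at 8.43, 11.1 and 14.6 RPKM in the posterior (3.78 ± 0.44, adjusted p = 0.0039, limma). Sim2 and Dlx1 passed the minimum through the posterior libraries alone. Meox2, a mesenchyme homeobox factor, averaged 10.4 ± 3.2 RPKM in the anterior and 35.7 ± 7.6 RPKM in the posterior, a difference of 1.82. Tbx22, a T-box factor whose loss causes cleft palate, averaged 4.68 ± 1.71 and 15.3 ± 1.2 RPKM, a difference of 1.75. Eya4 averaged 14.4 ± 3.4 and 36.1 ± 5.4 RPKM, a difference of 1.34. Mn1 (0.0066) and Lhx6 (-0.50) did not pass. The median of the list was 1.78. The expression table places Shox2 at mm9 chromosome 3, 66775649 to 66785693, Alx1 at chromosome 10, 102470481 to 102491411, and Barx1 at chromosome 13, 48758405 to 48761876, each the span of the whole gene.

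Shox2 and Alx1 kept an adjusted p under 0.05 with any 1 library left out (limma). Sim2 and Dlx1, which could not be tested without a posterior library, kept it with any 1 anterior library left out. Eya1 lost it without posterior replicate 3 (adjusted p = 0.052, limma), Barx1 without posterior replicate 1 (0.068), and Pax3, Tbx22 and Meox2 without any of posterior replicates 1, 2 and 3 (Pax3 0.10, 0.054 and 0.10, Tbx22 0.088, 0.066 and 0.072, Meox2 0.13, 0.096 and 0.061). Without the run that held both groups, 4 anterior-list members were called (limma). None of the 6 posterior-list members still tested was called, and 4 of them had an unadjusted p under 0.05, against 1317 of all 10119 genes tested. With the run in the fit of all 25 libraries 1 anterior-list member (Alx1, adjusted p = 0.025, limma) and 2 posterior-list members (Dlx1, 0.021, and Meox2, 0.040) were called, and Shox2 (0.089, and 0.17 in that fit without the run), Sim2 (0.28) and Barx1 (1.00) were not.

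Promoter sequences are shown for some of the called members of the 2 lists and of the osteoblast list that have a single start site in the RefSeq promoter table (GRCm38.p6, a different build from the mm9 coordinates of the expression table), since members of these lists moved together. Each runs from 250 bases before the start site to 50 after it, and capitals mark TGTGGT on either strand (the core that runt domain factors such as Runx2 bind), TAATTA (a homeodomain core, its own reverse complement) and TATAAA on either strand (a TATA box). The anterior factor Shox2 and the posterior factor Meox2 follow.
Shox2 (chr3:66981722-66982021, minus strand): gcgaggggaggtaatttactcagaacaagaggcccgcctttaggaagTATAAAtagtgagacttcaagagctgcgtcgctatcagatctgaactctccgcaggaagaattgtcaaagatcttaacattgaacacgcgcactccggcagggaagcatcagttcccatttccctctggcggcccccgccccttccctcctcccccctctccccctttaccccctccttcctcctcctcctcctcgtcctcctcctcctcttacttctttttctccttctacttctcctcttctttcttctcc
Meox2 (chr12:37108290-37108589, plus strand): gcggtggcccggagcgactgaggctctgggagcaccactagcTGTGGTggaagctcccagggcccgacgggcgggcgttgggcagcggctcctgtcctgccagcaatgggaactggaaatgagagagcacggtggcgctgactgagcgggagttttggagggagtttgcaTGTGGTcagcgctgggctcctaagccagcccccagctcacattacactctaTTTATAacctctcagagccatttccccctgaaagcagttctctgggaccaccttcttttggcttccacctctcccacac
The Shox2 promoter held TATAAA with its first base at -203, counted from the start site. The Meox2 promoter held TGTGGT at -208 and -80 and TTTATA, the reverse complement of TATAAA, at -29. Of 32851 promoters of this length, 16.8% held TGTGGT, 5.3% TAATTA and 13.6% TATAAA. The promoters of Dlx1 and Barx1 held none of the 3.

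**Figure D2:**
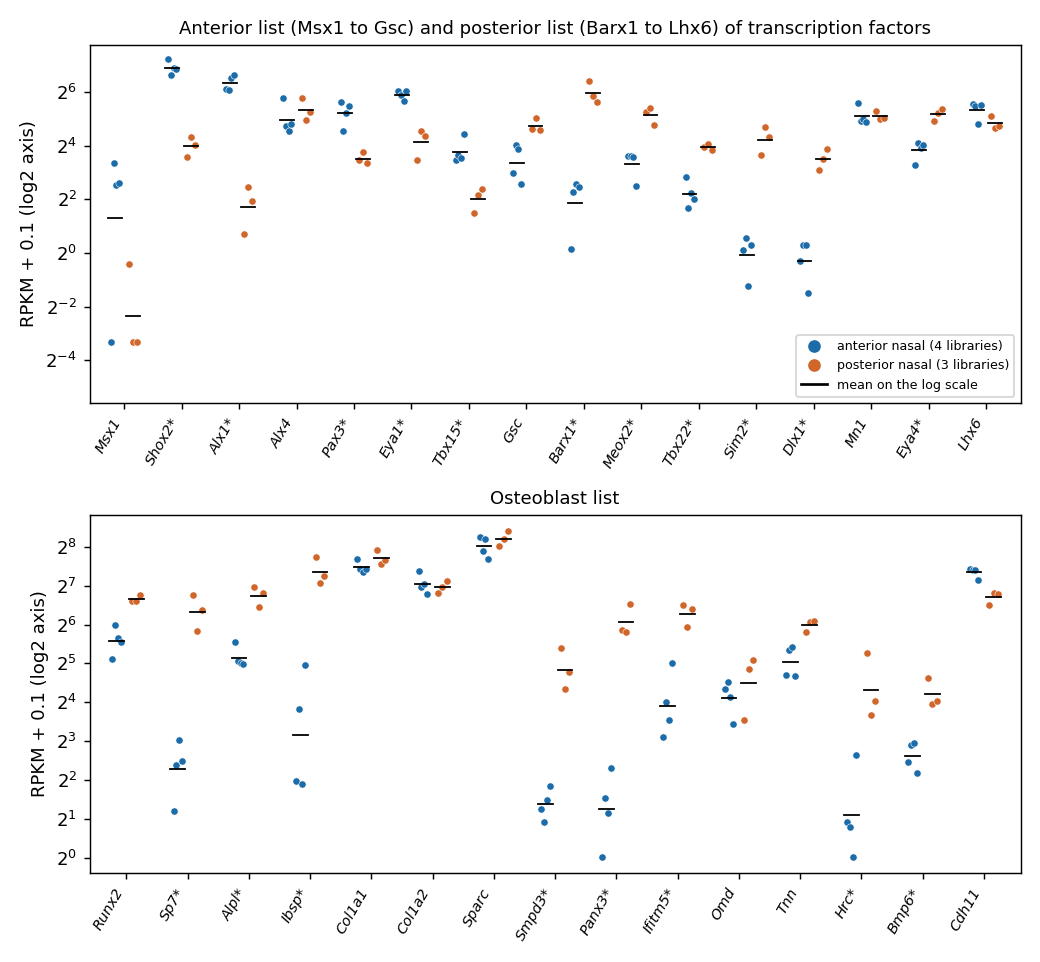
Each dot is 1 library, with RPKM + 0.1 on a log2 axis, for members of the anterior and posterior transcription factor lists (upper panel) and of the osteoblast list (lower panel). Bars are means on the log scale and an asterisk marks an adjusted p under 0.05. Shox2, Alx1, Pax3, Eya1 and Tbx15 sit higher in the 4 anterior libraries (blue), and Barx1, Sim2, Sp7, Panx3 and Smpd3 higher in the 3 posterior libraries (orange).

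A group of bone genes was higher in the posterior nasal palate. Of 23 osteoblast genes measured, 16 could be tested, and 8 were higher in the posterior, none in the anterior, with a median difference of 1.33. Sp7 (Osterix), the factor that commits cells to the osteoblast fate, was at 2.19, 5.10, 8.03 and 5.54 RPKM in the anterior and at 108, 56.5 and 83.6 RPKM in the posterior (4.05 ± 0.42, adjusted p = 0.0021, limma). Ibsp, the bone sialoprotein of mineralizing matrix, was at 3.81, 14.1, 3.63 and 31.0 RPKM in the anterior and at 215, 135 and 152 RPKM in the posterior (4.20 ± 0.70, adjusted p = 0.020, limma). Panx3, a channel protein of osteoblasts and chondrocytes, was at 0.918, 2.80, 2.11 and 4.86 RPKM in the anterior and at 58.5, 55.9 and 91.7 RPKM in the posterior (4.81 ± 0.48, adjusted p = 0.0021, limma). For these 3 genes the lowest posterior library stood above the highest anterior one, and anterior replicate 4 was the highest anterior library for Ibsp and Panx3.

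Smpd3, a sphingomyelinase needed for mineralization, was at 2.30, 1.78, 2.67 and 3.49 RPKM in the anterior and at 42.0, 20.1 and 27.2 RPKM in the posterior (3.46 ± 0.31, adjusted p = 0.0011, limma). Alpl, the alkaline phosphatase of mineralizing cells, averaged 35.9 ± 7.5 and 108 ± 18.6 RPKM, a difference of 1.60. Ifitm5, a membrane protein of osteoblasts, averaged 17.0 ± 10.4 and 78.7 ± 15.4 RPKM, a difference of 2.36. Hrc (3.24) and the ligand Bmp6 (1.58) also passed. Runx2, the first factor of the lineage, was at 34.3, 63.1, 50.3 and 46.4 RPKM in the anterior and at 97.1, 96.7 and 109 RPKM in the posterior. Its groups did not overlap, but its difference of 1.08 ± 0.23 missed the threshold (adjusted p = 0.053, limma). The matrix genes Col1a1 (178 ± 20 and 211 ± 29 RPKM), Col1a2 (133 ± 23 and 126 ± 14 RPKM) and Sparc (261 ± 48 and 298 ± 39 RPKM), which fibroblasts make as well, overlapped between the groups. The late gene Spp1 (osteopontin) stayed below the minimum, at 0 to 4.45 RPKM in the 7 libraries. In bulk samples, fewer cells of a type and less RNA per cell cannot be told apart.

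Sp7 kept its call with any 1 library left out. Panx3 and Smpd3, which passed the minimum through the posterior libraries alone, could not be tested without a posterior one. They kept their calls with any 1 anterior library left out. Ibsp lost its call without posterior replicate 1, 2 or 3 (adjusted p = 0.12, 0.054 and 0.084, limma), Alpl without posterior replicate 1 or 3 (0.064 and 0.058), Bmp6 without posterior replicate 1, 2 or 3 (0.098, 0.054 and 0.077) and Ifitm5 without anterior replicate 3 or posterior replicate 1, 2 or 3 (0.054, 0.13, 0.054 and 0.11). Without the run that held both groups, 3 of 13 members still tested were called (Sp7, Ibsp and Ifitm5). With the run as a term in the fit of all 25 libraries none of the 16 was called (limma). In that fit 8 of the 16 were higher in the posterior at an unadjusted p under 0.05. Over all 10629 genes, 520 had such a p in either direction.

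The promoters of Ibsp and Ifitm5, printed as above, are the osteoblast-list examples.
Ibsp (chr5:104299037-104299336, plus strand): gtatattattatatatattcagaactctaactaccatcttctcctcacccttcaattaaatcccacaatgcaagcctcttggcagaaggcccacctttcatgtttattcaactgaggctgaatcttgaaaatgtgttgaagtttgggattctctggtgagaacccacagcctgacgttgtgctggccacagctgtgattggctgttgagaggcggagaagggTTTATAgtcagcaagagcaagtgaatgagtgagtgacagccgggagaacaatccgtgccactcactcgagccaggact
Ifitm5 (chr7:140950194-140950493, minus strand): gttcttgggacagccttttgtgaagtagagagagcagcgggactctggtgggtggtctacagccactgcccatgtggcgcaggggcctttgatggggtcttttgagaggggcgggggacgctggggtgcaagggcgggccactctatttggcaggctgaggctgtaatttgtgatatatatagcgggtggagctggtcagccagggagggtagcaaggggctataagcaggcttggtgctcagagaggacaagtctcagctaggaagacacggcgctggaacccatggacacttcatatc
The Ibsp promoter held TTTATA at -28, and that of Ifitm5 held none of the 3 motifs. None of the 4 osteoblast-list promoters with a single start site (Ibsp, Bmp6, Ifitm5 and Hrc) held TGTGGT or TAATTA.

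Dlx genes code for homeobox factors of the branchial arches, and Dlx3 and Dlx5 also act in osteoblasts. Of 8 family members measured, 3 could be tested and 2 passed, both higher in the posterior. Besides Dlx1, Dlx3 averaged 1.99 ± 0.99 RPKM in the anterior, and it was at 29.5, 6.58 and 8.58 RPKM in the posterior, with posterior replicate 1 the highest (2.64 ± 0.54, adjusted p = 0.046, limma). The call on Dlx3 was lost without anterior replicate 1, 2 or 3 (adjusted p = 0.078, 0.079 and 0.088, limma). Dlx5 was at 9.86, 28.5, 19.5 and 21.2 RPKM in the anterior and at 74.4, 39.8 and 40.3 RPKM in the posterior, without overlap but short of the threshold (1.41, adjusted p = 0.099, limma). Dlx6, below the minimum, was at 21.5 RPKM in posterior replicate 1 and between 1.12 and 5.42 RPKM in the other 6 libraries. Posterior replicate 1 was thus the highest library for Dlx3, Dlx5 and Dlx6. None of 15 Hox genes reached the minimum.

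Some cartilage genes were also higher in the posterior, while Sox9, the master factor of cartilage, overlapped between the groups. Of 22 genes measured, 14 could be tested, and 4 were higher in the posterior and none in the anterior (median 0.99). At an unadjusted limma p under 0.05, 8 of the 14 were higher and 2 lower in the posterior. Over all 10629 tested genes 1985 had such a p in either direction. Sox6 and Col9a1 were tested only because of their posterior values, which fixed their direction. Sox6, a partner of Sox9 in chondrocytes, was at 1.79, 2.45, 3.22 and 2.23 RPKM in the anterior and at 25.2, 23.2 and 31.5 RPKM in the posterior (3.42 ± 0.24, adjusted p = 0.0004, limma). Lect1 (chondromodulin) averaged 4.44 ± 1.25 and 16.6 ± 2.8 RPKM, a difference of 1.90. The fibril-associated collagens Col9a1 (2.46) and Col9a3 (1.40) passed as well. Sox9 averaged 51.9 ± 14.6 RPKM in the anterior and 51.3 ± 8.7 RPKM in the posterior (0.014 ± 0.26), with a sign that depended on the scaling and on the libraries kept. Col2a1, the main cartilage collagen, averaged 20.6 ± 5.3 and 40.6 ± 10.3 RPKM and did not pass (0.99, adjusted p = 0.11, limma). Col9a3 lost its call without posterior replicate 1 or 3 (adjusted p = 0.080 in both cases, limma). Without the run that held both groups none of the 10 members still tested was called (limma). Of them 4 were higher and 1 was lower in the posterior at an unadjusted p under 0.05, against 1317 of all 10119 genes in either direction. With the run in the fit of all 25 libraries none of the 14 was called (limma). Of them 6 were higher in the posterior at an unadjusted p under 0.05, against 520 of all 10629 genes in either direction.

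**Figure D3:**
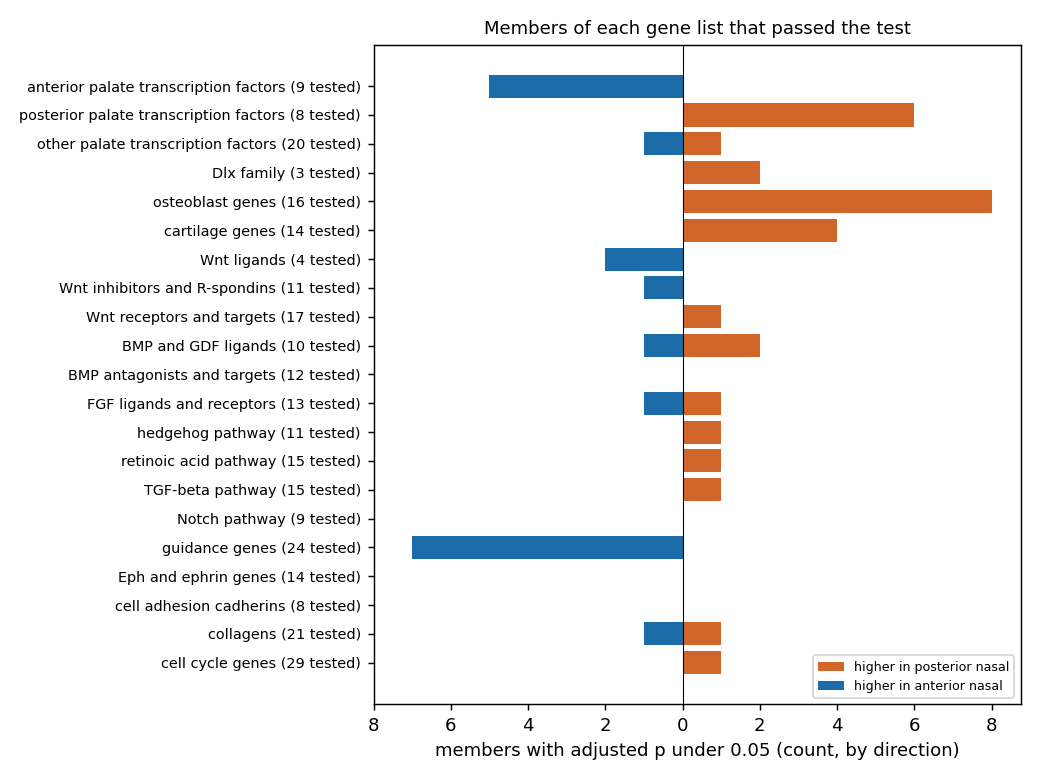
Bars count the members of each gene list with an adjusted p under 0.05, to the right where the posterior nasal libraries were higher and to the left where the anterior ones were, with the number tested beside each list name. The osteoblast list has 8 members to the right and the guidance list 7 to the left.

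Wnt signalling works through secreted ligands, Frizzled receptors and secreted inhibitors. The 2 called Wnt ligands were both higher in the anterior, of 4 that could be tested among 19 listed. Wnt5a, a noncanonical ligand, was at 96.5, 62.4, 92.6 and 62.0 RPKM in the anterior and at 14.8, 15.6 and 17.5 RPKM in the posterior (-2.26 ± 0.23, adjusted p = 0.0021, limma). Wnt2 was at 9.48, 8.75, 8.80 and 5.35 RPKM in the anterior and at 0.0779, 0.491 and 0.377 RPKM in the posterior (-4.44 ± 0.41, adjusted p = 0.0014, limma). Neither gene overlapped between the groups, and both kept their calls with any 1 library left out. With the run in the fit of all 25 libraries Wnt2 kept its call (adjusted p = 0.0067, limma) and Wnt5a did not (0.32). Of 11 Wnt inhibitors and R-spondins, 1 passed, Dkk2, at 59.1 ± 11.2 RPKM in the anterior and 12.9 ± 3.3 RPKM in the posterior (-2.20, adjusted p = 0.0036, limma). Of 17 receptors and targets, 1 passed, the receptor Fzd8, at 4.15 ± 0.73 and 9.96 ± 1.40 RPKM (1.25), a call lost without anterior replicate 3 (adjusted p = 0.054, limma). Axin2, a target of canonical Wnt signalling, overlapped between the groups at 20.8 ± 2.8 and 24.6 ± 10.2 RPKM.

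BMP and GDF ligands moved both ways, with 3 of 10 tested members called. Bmp2 was higher in the anterior (30.2 ± 3.6 and 13.8 ± 1.4 RPKM, -1.12) and Gdf10 in the posterior (8.23 ± 4.07 and 42.0 ± 10.2 RPKM, 2.44), beside Bmp6 above. Bmp4 overlapped between the groups (29.1 ± 9.9 and 14.1 ± 5.5 RPKM, adjusted p = 0.21, limma). None of 12 BMP antagonists and targets passed (limma), with 4 at an unadjusted p under 0.05, against 1985 of all 10629 tested genes. In the FGF list 2 of 13 passed: the ligand Fgf18 was at 30.3, 15.9, 22.4 and 10.4 RPKM in the anterior and at 2.14, 5.77 and 2.57 RPKM in the posterior (-2.49), and the receptor Fgfr3 was at 1.80, 3.15, 3.90 and 1.94 RPKM in the anterior and at 13.8, 10.2 and 13.7 RPKM in the posterior (2.24). The call on Fgfr3 held without any 1 anterior library, and it could not be tested without a posterior one. The call on Bmp2 was lost without anterior replicate 2 or 3 or any posterior replicate, that on Gdf10 without posterior replicate 1 or 3, and that on Fgf18 without anterior replicate 3 or posterior replicate 1 or 3, with adjusted p between 0.052 and 0.13 (limma).

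Among 11 tested hedgehog genes 1 passed. Gli1, a transcription factor that is itself a target of hedgehog signalling, was at 3.43, 3.19, 3.98 and 9.15 RPKM in the anterior and at 28.9, 14.9 and 24.3 RPKM in the posterior (2.27 ± 0.39, adjusted p = 0.022, limma). Ptch1, another target, did not pass (0.66, adjusted p = 0.22, limma). The ligand Shh was at 0, 0, 0 and 0.0922 RPKM in the anterior and at 0.0618, 0 and 15.3 RPKM in the posterior, with the one high value in posterior replicate 3. Among 15 retinoic acid genes Rbp4, a retinol carrier, passed (3.21 ± 1.84 and 14.6 ± 2.5 RPKM, 2.30). In the list headed TGF-beta pathway, 1 of 15 tested genes passed, Wisp1 (4.92 ± 1.51 and 18.7 ± 3.8 RPKM, 1.94). Wisp1 codes for a matricellular protein also called Ccn4. The study spells its name as Wnt1 inducible signaling pathway protein 1, so its place in this list is a matter of the list alone. None of 9 Notch genes passed (limma), with 3 at an unadjusted p under 0.05, against 1985 of all 10629 tested genes. Calls were lost for Gli1 without anterior replicate 1 or 3 or posterior replicate 1 or 3, for Rbp4 without anterior replicate 1 or any posterior replicate, and for Wisp1 without posterior replicate 1, with adjusted p between 0.054 and 0.13 (limma).

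Several genes of axon and cell guidance were higher in the anterior. Of 24 tested members 7 were higher in the anterior and none in the posterior, with a list median of -0.64. Nrp1, a receptor for semaphorins and VEGF, was at 35.7, 21.7, 33.6 and 29.2 RPKM in the anterior and at 5.63, 6.88 and 6.13 RPKM in the posterior (-2.24 ± 0.22, adjusted p = 0.0021, limma). The netrin receptor Unc5c was at 32.1 ± 1.6 RPKM in the anterior and 12.2 ± 0.9 RPKM in the posterior (-1.38, adjusted p = 0.0052, limma). Both kept their calls with any 1 library left out, but with the run in the fit of all 25 libraries Nrp1 alone of the 7 was called (adjusted p = 0.0085, limma), and Unc5c was not (0.21). The ligand Slit2 (30.0 ± 7.3 and 9.72 ± 1.26 RPKM, -1.59), Ntng1 (8.03 ± 2.22 and 2.45 ± 0.28 RPKM, -1.64), the netrin receptor Dcc (7.69 ± 3.58 and 1.65 ± 0.08 RPKM, -2.04), Sema3e (-1.02) and Sema5a (-1.08) were the other 5. The calls on Slit2 and Ntng1 were lost without any of posterior replicates 1, 2 and 3 (adjusted p between 0.054 and 0.079, limma). Without the run that held both groups 2 members were called. Without anterior replicates 1 and 4 the count was also 2, of 22 tested, and the median was -0.14. None of 14 Eph and ephrin genes and none of 8 cadherins passed (limma). Of these 3 and 2 had an unadjusted p under 0.05, against 1985 of all 10629 tested genes.

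Other matrix, regulatory and growth genes passed singly. Col14a1, a fibril-associated collagen, was at 57.4, 44.4, 53.2 and 38.9 RPKM in the anterior and at 6.34, 6.13 and 3.09 RPKM in the posterior (-3.25 ± 0.29, adjusted p = 0.0011, limma). Col6a3 went the other way (22.0 ± 4.7 and 58.7 ± 12.9 RPKM, 1.42). These were the 2 called of 21 tested in the collagen list, which does not hold Col9a1 and Col9a3 of the cartilage list. Osr1, an odd-skipped factor, was at 62.0 ± 18.4 RPKM in the anterior and 11.8 ± 3.4 RPKM in the posterior (-2.38, adjusted p = 0.0051, limma), and its relative Osr2 did not pass (49.0 ± 13.3 and 19.8 ± 7.7 RPKM, adjusted p = 0.072). Zeb2, a zinc finger factor, was at 30.9, 23.2, 23.4 and 25.5 RPKM in the anterior and at 46.7, 54.7 and 62.8 RPKM in the posterior (1.08), and its call was lost without anterior replicate 2 or 3 or any posterior replicate (adjusted p 0.072 to 0.15, limma). Osr1 and Zeb2 were the 2 called of 20 other palate transcription factors. Of 29 cell cycle genes Ccnd1 (cyclin D1) alone passed, at 20.1 ± 3.7 and 56.5 ± 9.5 RPKM (1.49). Ccnd1 lost its call without posterior replicate 1 or 3 (adjusted p = 0.071 and 0.074, limma), and Col6a3 without anterior replicate 2 or any posterior replicate (0.050 to 0.10).

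The genes of widest difference included several outside these lists. Cxcl13, a chemokine that draws B cells, was at 5.57, 16.7, 15.9 and 15.9 RPKM in the anterior and was listed at 0 in all 3 posterior libraries. Hpse2, a heparanase homologue, was at 23.7, 15.9, 24.3 and 14.2 RPKM in the anterior and at 0.309, 0.365 and 0.187 RPKM in the posterior (-5.65 ± 0.27, adjusted p = 4.8e-05, limma). Ambn (ameloblastin, an enamel matrix protein, -4.78), the chemokine Cxcl14 (-4.42) and the actin-binding protein gene Synpo2 (-4.36) were also higher in the anterior, with posterior values no higher than 0.885 RPKM. On the posterior side Pcp4, a calmodulin-binding protein, was at 0, 6.59, 0 and 2.16 RPKM in the anterior and at 76.6, 102 and 118 RPKM in the posterior (adjusted p = 0.033, limma). Car3, a carbonic anhydrase, was at 0.176 to 0.654 RPKM in the anterior and at 10.8, 7.58 and 7.60 RPKM in the posterior (4.37 ± 0.34, adjusted p = 0.00081, limma). Gm10629 (5.10) passed too. The small nucleolar RNA Snord37 was listed at 0 in all 4 anterior libraries and at 28.8, 15.6 and 12.2 RPKM in the posterior, but on its 53 bases these equal an implied 9.26, 3.18 and 1.62 reads, so its level is set by few reads. Pcp4 lost its call without anterior replicate 1 or 3 or any posterior replicate (adjusted p between 0.056 and 0.16, limma). Hpse2, Ambn, Cxcl13 and Synpo2 kept theirs with any 1 library left out. Car3 and Cxcl14 kept theirs in the 4 cases in which they could be tested, which for Car3 were those without an anterior library. Hpse2, Ambn, Cxcl13, Synpo2, Cxcl14, Car3 and Snord37 each passed the minimum through 1 group alone, which fixed their directions. Pcp4 did not, since anterior replicate 2 held 6.59 RPKM. With the run in the fit of all 25 libraries Hpse2 (adjusted p = 0.0052, limma), Car3 and Cxcl13 (0.038 for both) were called, and Ambn (0.070), Cxcl14 (0.11) and Synpo2 (0.089) were not.

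Markers of other cell types moved with some of these results. The mast cell proteases Cpa3 (36.4, 61.5, 31.3 and 71.6 RPKM in the anterior, 2.36, 0.893 and 3.57 RPKM in the posterior, adjusted p = 0.0021, limma) and Cma1 (21.1, 57.5, 13.6 and 14.2 RPKM in the anterior, 1.07, 0.241 and 3.34 RPKM in the posterior, adjusted p = 0.023) were both higher in the anterior. The 6 mast cell markers summed to 51.9 to 134 RPKM in the anterior and 3.11 to 8.77 RPKM in the posterior, with Fcer1a at 0 in all 7 libraries. Cma1 lost its call without anterior replicate 1 or posterior replicate 1 or 2 (0.058, 0.13 and 0.054). Of 8 tested smooth muscle and pericyte markers, 2 pericyte genes were higher in the anterior, Rgs5 (21.9 ± 9.5 and 3.44 ± 0.60 RPKM, -2.54) and Kcnj8 (9.68 ± 6.70 and 0.849 ± 0.329 RPKM, -3.19). The whole list summed to 110 to 244 RPKM and 90.7 to 131 RPKM. Epithelial markers summed to 109 to 212 RPKM in the anterior and 53.4 to 103 RPKM in the posterior. Of 10 tested, 1 was called lower in the posterior (limma) and 4 were lower at an unadjusted p under 0.05. Over all 10629 tested genes 1985 had such a p in either direction. The median difference of the epithelial list was -0.91. Nerve markers summed to 94.2 to 134 RPKM and 58.6 to 77.8 RPKM, sums that include Gap43, a growth cone protein. Of 4 tested, Gap43 alone was called (68.2 ± 7.3 and 28.4 ± 9.1 RPKM, -1.31). Another 1 went the other way, higher in the posterior by more than 2-fold at an unadjusted limma p under 0.05. Over all 10629 tested genes 368 did so. The median difference of the 4 nerve markers was -0.047. None of the tested endothelial (11), macrophage (7), red cell (5), skeletal muscle (4), stress (4) or nasal respiratory epithelium genes (3) passed (limma), and 1 endothelial, 1 red cell, 1 stress and 1 respiratory gene had an unadjusted p under 0.05. The muscle markers summed to 43.6 to 177 RPKM in the anterior and 39.5 to 92.3 RPKM in the posterior, and the respiratory ones to 29.1 to 67.2 and 23.4 to 58.4 RPKM. With the run in the fit of all 25 libraries no mast cell, pericyte or nerve marker was called (limma). The part of these cell types in the results on guidance genes, chemokines and Ambn was not tested.

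**Figure D4:**
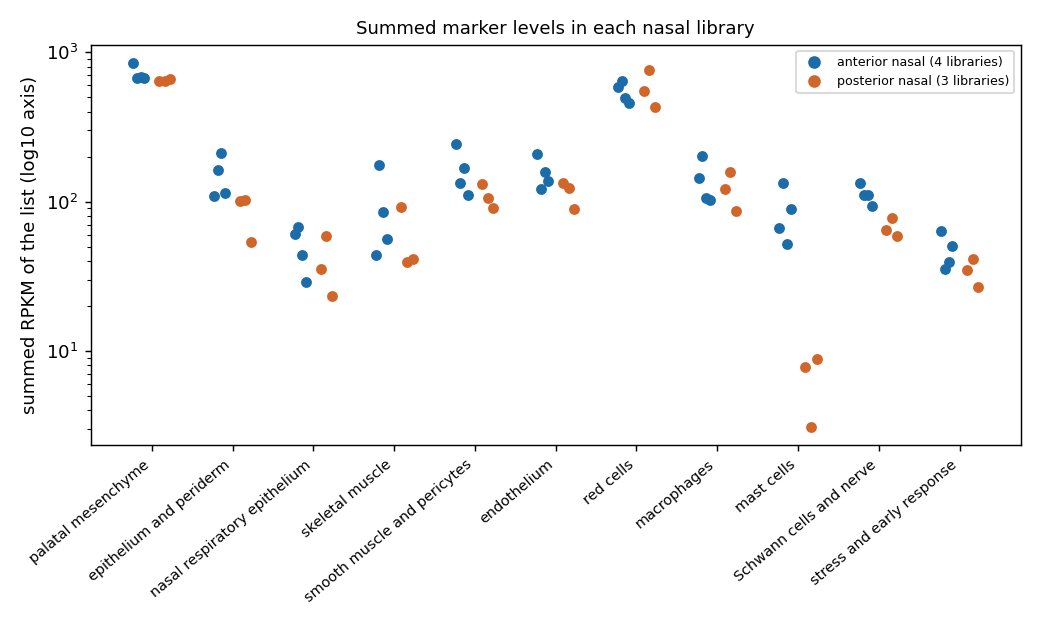
Each dot is the sum of RPKM over all members of a marker list in 1 nasal library, on a log10 axis, with anterior libraries in blue and posterior libraries in orange. The mast cell sums are 51.9 to 134 RPKM in the anterior and 3.11 to 8.77 RPKM in the posterior, and the red cell sums overlap.

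The same anterior-posterior contrast was then set against that in the medial, lateral and oral compartments, in 1 fit of all 25 libraries in which 11913 genes were tested. The nasal difference departed from the mean of the other 3 for 31 genes (0.260%, limma, adjusted p under 0.05), 7 in the posterior direction and 24 in the anterior direction. Slc13a5, a citrate transporter, was at 0.597 to 1.56 RPKM in the anterior nasal libraries and at 19.3, 8.76 and 10.7 RPKM in the posterior nasal ones. No other library exceeded 3.08 RPKM, so Slc13a5 passed the minimum through the posterior nasal libraries alone, which fixed its direction. Its nasal difference exceeded that of the other compartments by 5.01 ± 0.79 on the log2 scale (adjusted p = 0.0041, limma). The mineralization gene Smpd3 did so by 3.23 ± 0.65 (adjusted p = 0.035, limma) and Ifitm5 by 2.66 ± 0.55 (adjusted p = 0.044, limma). Smpd3 was at 20.1 to 42.0 RPKM in the posterior nasal libraries and at no more than 6.84 RPKM in the 18 libraries of the other compartments. Sp7 had a nasal difference of 4.05, against -1.98 in the medial, 1.95 in the lateral and 2.21 in the oral compartment, and did not pass (3.32 ± 1.11, adjusted p = 0.44, limma). Sp7 was listed at 0 in posterior medial replicate 2, against 2.78 and 2.60 RPKM in the other posterior medial libraries. That library held 12935 genes above 0, against 16330 or more in every other library. No fit of the departures was run without it. Wif1, a secreted Wnt inhibitor, had differences of -3.86, -2.08 and -1.73 in the medial, lateral and oral compartments and of 0.77 in the nasal one, a departure of 3.32 ± 0.45 (adjusted p = 0.0013, limma). The departure of Wif1 kept its call with any 1 nasal library left out. That of Slc13a5 could not be tested without a posterior nasal library, and kept its call with any 1 anterior nasal library left out. Smpd3 lost its call without any 1 of the 7 nasal libraries (adjusted p between 0.052 and 0.20, limma). Ifitm5 lost its call without any 1 except anterior replicate 4 (0.067 to 0.20).

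In the anterior direction, Pou3f3, a POU factor, had a difference of 2.71 in the medial, 0.52 in the lateral and 0.73 in the oral compartment and of -2.92 in the nasal one, a departure of -4.24 ± 0.53 (adjusted p = 0.0013, limma). Phactr1, a phosphatase and actin regulator, departed by -4.11 and the cadherin gene Cdh20 by -4.86, with differences of 2.81 to 4.10 and 2.98 to 5.39 in the other compartments and of -0.66 and -0.82 in the nasal one. The cadherin gene Cdh7 departed by -4.49, with a difference of 6.23 in the medial compartment and of -0.56 and -0.15 in the lateral and oral ones. These 3 genes did not reach the minimum in the nasal libraries. Phactr1 held 5 RPKM or more only in posterior libraries of the other compartments, and Cdh7 only in the posterior medial ones. Both were tested through those libraries alone, which fixed the direction of their departures. Phactr1 was at 5.34 to 15.1 RPKM in the 9 posterior libraries of the other compartments and at 0.449 to 1.07 RPKM in the posterior nasal libraries. Pou3f3 and Phactr1 kept their departures with any 1 nasal library left out, and Cdh20 and Cdh7 each lost theirs in 5 of 7 cases. Meox2, singled out after its values were seen, had a difference of 1.82 in the nasal compartment, against 4.60 in the medial, 4.28 in the lateral and 3.76 in the oral one, a departure of -2.39 ± 0.41 (adjusted p = 0.0095, limma) that was lost without posterior nasal replicate 3 (0.079). Its posterior nasal values of 38.0, 41.9 and 27.2 RPKM lay below all 9 other posterior values, of which the lowest was 52.8 RPKM. The departures of Shox2 (0.98 ± 1.13) and Barx1 (-0.87 ± 1.15) did not pass (adjusted p = 0.92 for both, limma). Against the oral compartment alone 9 genes departed (0.0755%), among them Slc13a5, Wisp1 (2.40) and Pax3 (2.12) in the posterior direction and Cxcl13, Pou3f3 (-3.65), Ppfia2 (-3.26) and Ncam2 (-2.51) in the anterior. Of these, Cxcl13 alone kept its call with any 1 nasal library left out, and the others named lost theirs in 4 to 6 cases. Cxcl13 passed the minimum through the anterior nasal libraries alone, and Slc13a5 through the posterior nasal ones, which fixed their directions. Pax3 was at 10.8, 13.4 and 10.1 RPKM in the posterior nasal libraries and at 3.00, 2.26 and 3.12 RPKM in the posterior oral ones. With the run as a covariate neither contrast called any gene (limma). Of the 11913 genes tested, 393 and 312 had an unadjusted p under 0.05, against 640 and 297 without it. A share of 0.05 of the genes would pass this threshold by chance alone.

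**Figure D5:**
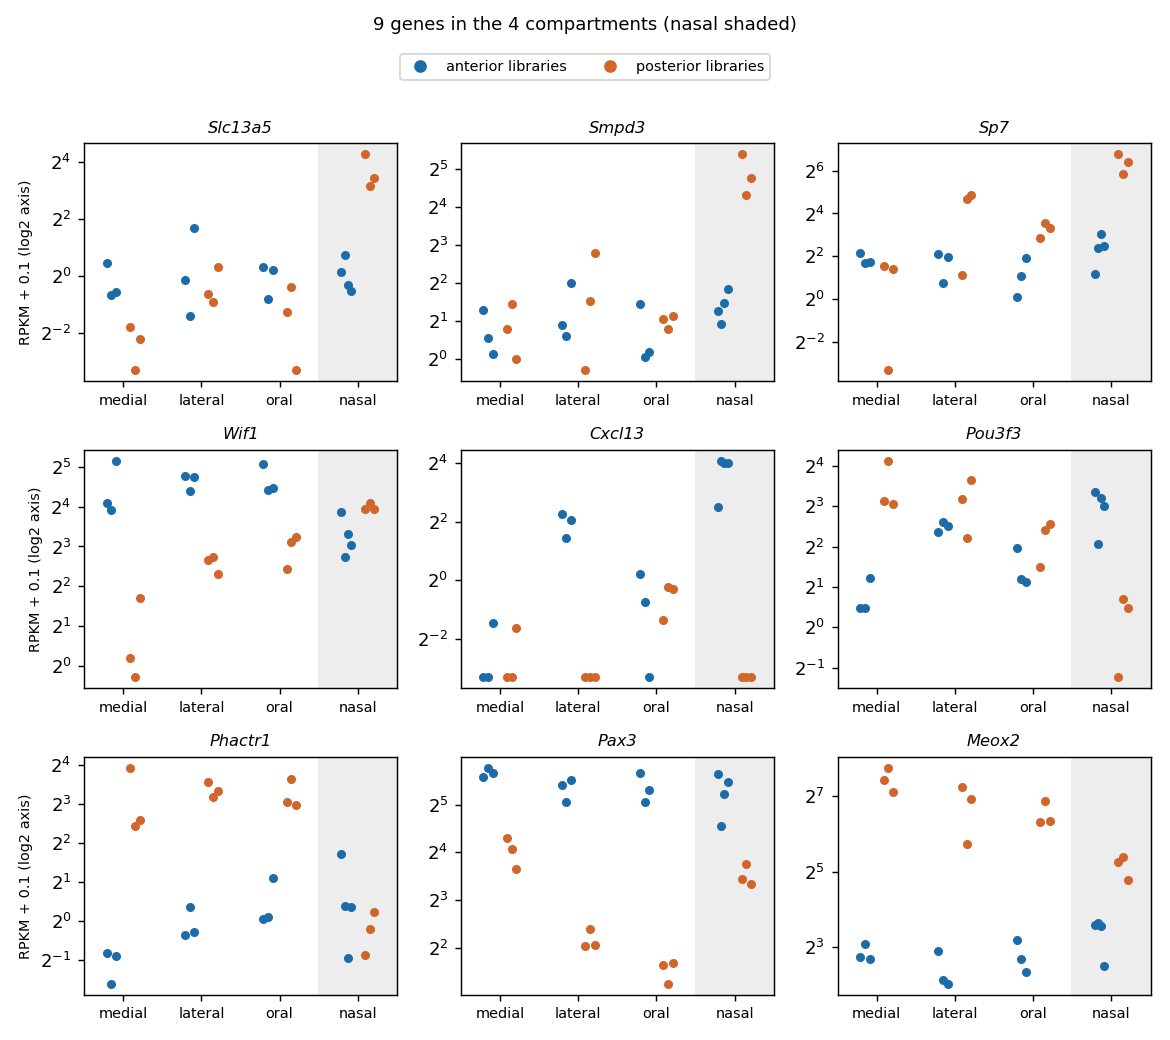
Each dot is 1 of the 25 libraries, with RPKM + 0.1 on a log2 axis, for 9 genes in the medial, lateral, oral and nasal (shaded) compartments, anterior in blue and posterior in orange. Slc13a5, Smpd3 and Sp7 have their highest values in the posterior nasal libraries, and Meox2 has a smaller posterior gap in the nasal compartment than in the other 3.

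Most of the called nasal genes had the same direction in other compartments, whose libraries are separate from the nasal ones but share some of their sequencing runs. Of the 235, 180 could be tested between the oral domains, and 161 of these (89.4%) had the same direction, against 73.0% of all genes tested in both. In the lateral compartment it was 156 of 183 (85.2%, against 50.9%), and in the medial compartment 105 of 159 (66.0%, against 44.9%). The medial comparison kept posterior medial replicate 2, the library with the fewest genes above 0. At the looser thresholds, 63 of the 180 were called in the same direction in the oral compartment (background 2.27%), 73 of the 183 in the lateral (3.11%) and 38 of the 159 in the medial one (2.88%). Pax3, Alx1, Hpse2 and Shox2 were lower in the posterior of all 4 compartments by at least 1.67 on the log2 scale after rounding. Alx1 had differences of -6.69 in the medial, -6.10 in the lateral and -5.59 in the oral compartment, beside -4.64 in the nasal one.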

How the data were processed

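RNA was measured in anterior and posterior nasal compartments of the E14.5 palate, taken by laser capture, amplified with the NuGEN Ovation V2 kit and made into Nextera libraries that do not keep strand, then read as single-end 50-base reads. Per the labels and the study's methods, the authors deposited 1 table of RPKM values per gene and library, made in GeneSpring from alignments after removing duplicate reads and reads with more than 1 alignment. The submitters' processing notes name TopHat and mm9. No read counts were used here. Depth was inferred from the RPKM steps of short single-exon genes, so counting errors are estimates, and they cover counting error only.

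Groups came from the sample titles. A pseudocount of 0.1 RPKM was added before log2, so a fold change of a low gene is understated. Genes with at least 5 RPKM in 3 of the 7 libraries were fitted with limma (version 3.58.1, R 4.3.3), with Benjamini-Hochberg adjustment over all tested genes. The looser thresholds follow the fold change and P cut-off of the study's compartment comparisons. The study does not say whether P was adjusted. Its own pooled anterior-posterior test was not used. The departure from other compartments was tested as an interaction in 1 limma fit of all 25 libraries. Scripts were tested on simulated data. The labels do not say that the replicates came from separate embryos, although the study calls them biological replicates, so p-values measure the spread between these samples, which may be technical in part.

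The members and 33 gene lists were chosen with earlier results of these data known. Genes are named by rule: up to 10 of the largest called differences in each direction, up to 4 of lowest p in each pathway list, a set of known palate genes, up to 5 per direction for each interaction, the 10 most abundant genes, and the top gene of each marker list. Other list members that passed, and Axin2, Spp1 and a few contrasts, were named after their values were seen. Of the most abundant genes, those reported here (Rpl41, Gm20594, Eef1a1, Rpl39, Rps4x, Malat1, Rpl9, Rps20 and Rpl23a) were not called. Of the tested genes, 7590 matched a RefSeq promoter by symbol. Some genes that the rule names are not reported here. Alternatives changed the pseudocount, minimum, scaling, variance trend, libraries fitted, run, replicate block and each library in turn.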

Additional observations from a re-analysis of the deposited data

Results flagged for a closer look

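Among 141 values checked, 12 had 1 anterior nasal library far from the other 3, where chance alone gives about 1 in 20. Anterior replicate 1 stood apart for Cxcl13 (5.57 RPKM, others 15.9 to 16.7), Foxf2 (80.2, others 28.2 to 32.5), Alpl (47.1, others 31.5 to 33.0), Gas1 (82.7, others 42.2 to 47.3) and Alx4 (54.9, others 23.3 to 28.0). Anterior replicate 4 stood apart for Ambn (19.4 RPKM, others 7.05 to 8.92), Gli1 (9.15, others 3.19 to 3.98), Cdh11 (140.4, others 170 to 172), Meox2 (5.55, others 11.7 to 12.2), Dlx6 (5.42, others 1.74 to 2.26) and Shh (0.0922, others at 0). Anterior replicate 3 stood apart for Mir140 (0.127 RPKM, others at 0). For Shh and Mir140, with the other anterior libraries at 0, any value above 0 would be flagged, so the rate of 1 in 20 does not apply to them. The groups of 3 posterior libraries are too small for this check.

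The nasal posterior-anterior difference departed from the mean of the other 3 compartments (log2, adjusted p under 0.05, limma) for Mir140 by 6.98, Slc13a5 by 5.01, Wif1 by 3.32, Smpd3 by 3.23 and Ifitm5 by 2.66. In the anterior direction the departures were -5.42 for Cxcl13, -4.86 for Cdh20, -4.49 for Cdh7, -4.24 for Pou3f3 and -4.11 for Phactr1. Mir140 was at 10.7, 1.56 and 9.19 RPKM in the posterior nasal libraries and, on a gene of 70 bases, rests on few reads. Its call was lost in 4 of the 5 cases with 1 library left out in which it could be tested. Against the oral compartment alone the departures were 5.19 for Slc13a5, 2.40 for Wisp1, 2.12 for Pax3, -7.62 for Cxcl13, -3.65 for Pou3f3, -3.26 for Ppfia2 and -2.51 for Ncam2. Since Cxcl13 was listed at 0 in all posterior nasal libraries, the size of its departure depends on the pseudocount. Cxcl13 and Slc13a5 each passed the minimum through nasal libraries of 1 domain alone, which fixed their directions. Phactr1 passed it only through posterior libraries of the other compartments and Cdh7 only through posterior medial ones, which fixed theirs too. With the run as a covariate none of these departures had an adjusted p under 0.05.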

How the results depend on the processing

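The 235 calls became 72 with no filter on low values, 33 with the run in a fit of all 25 libraries and 71 with a replicate block. The 643 genes past the looser thresholds (2-fold, unadjusted P under 0.05) became 1874, 378 and, with a minimum of 10 RPKM, 374, and the 47 list members called became 15 with no filter, 8 with the run and 21 with the block. For these counts the block was fitted without anterior replicate 4. Leaving out that library alone, with no block, gave 261 calls. Same-numbered libraries did not deviate together (r = 0.044, 0.0088 and 0.0986). With deviations from means of 3 libraries per group, this check cannot decide whether the numbers pair the samples. Chosen after seeing the data, leaving out the run that held both groups gave 65 genes, 376 at the looser thresholds and 17 list members, and leaving out anterior replicates 1 and 4 gave 93, 405 and 30. Leaving out 1 library gave 53 (without posterior replicate 1) to 261 genes, 437 to 788 at the looser thresholds and 12 to 51 list members. The 31 departures of the nasal compartment from the other 3 became 48 with a pseudocount of 1, 19 with the replicate block and 15 to 28 without 1 nasal library. With the run as a covariate they became 0 (393 of 11913 genes at an unadjusted p under 0.05, limma). The 9 departures from the oral compartment became 2 with median centring, quantile normalization, a variance trend or no filter. They became 4 with the block, 1 to 7 without 1 nasal library and 0 with the run (312 of 11913 genes at an unadjusted p under 0.05, limma). Sox9 changed sign with median centring (-0.12), quantile normalization (-0.028), the run (-0.12), the block (-0.0092), anterior replicates 1 and 2 averaged (-0.016), the shared run left out (-0.14) and anterior replicates 1 and 4 left out (-0.27), and ranged from -0.15 to 0.18 without 1 library. Over all named genes and alternatives, 1883 values kept direction and side of the threshold, 365 fell below it, 59 passed it and 10 changed sign. The cause of these changes was not tested, except that genes at 5 RPKM in 3 libraries alone leave the test with a library. Depth limits genes near 5 RPKM.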

Other observations

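A few genes varied between libraries without regard to the anterior and posterior groups, and they were chosen after their values were seen. Shh was at 15.3 RPKM in posterior replicate 3 and at no more than 0.0922 RPKM in the other 6 nasal libraries. Gm1974 was at 340, 0, 283 and 208 RPKM in the 4 anterior libraries and at 0, 239 and 0 RPKM in the 3 posterior ones. The Y-linked gene Eif2s3y was at 6.23, 38.4, 0 and 0 RPKM in the anterior and at 0, 34.2 and 27.5 RPKM in the posterior. Both groups held libraries listed at 0 and libraries at 27.5 RPKM or more for it. Xist, expressed from the inactive X chromosome, was at 240, 76.8, 261 and 157 RPKM in the anterior and at 131, 83.8 and 180 RPKM in the posterior. The part of the sex of the embryos in the results was not tested.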
